A study of Mus musculus with 8 samples.

Results

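The sirtuin family in the mouse consists of 7 genes, Sirt1 to Sirt7, out of 26180 genes with a curated RefSeq transcript. For each of them, the peaks of 4 lists were collected at the promoter and in the gene body, together with any gene on the opposite strand that starts close enough to share the promoter. A promoter was the stretch that begins 1 kb before a RefSeq transcription start site (TSS) and ends 100 bp after it, and a peak counted when it overlapped this stretch by 1 bp or more. A gene body peak lay within the gene and touched none of its promoters. All 7 genes were found by name in the annotation.

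Sirtuins are deacylases that consume NAD, so that their activity is tied to the metabolic state of the cell. Sirt1, Sirt6 and Sirt7 are mainly nuclear and act on histones and transcription factors, Sirt2 is mainly cytoplasmic, and Sirt3, Sirt4 and Sirt5 are directed to mitochondria, where they act on metabolic enzymes. They stand opposite to acetyltransferases such as MOF (KAT8), which acetylates lysine 16 of histone H4, a residue that Sirt1 and Sirt2 can deacetylate.

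All cells came from wild-type mouse total epidermis at postnatal day 0.5 (P0.5), separated from the dermis of the back skin with dispase and made into single cells with trypsin. MOF was mapped by ChIPseq of fixed and fragmented chromatin. Rfx2 (a factor that binds the X-box of ciliary genes), H3K4me3 (found at active promoters) and H3K27Ac (found at active promoters and enhancers) were mapped by Cut&Run, which uses an antibody-guided nuclease to cut out the bound DNA. The series holds 8 libraries of 6 antibodies, and 1 peak list each was used for MOF, Rfx2, H3K4me3 and H3K27Ac. With 1 list per antibody there was no spread between replicates and no test, so each value describes these lists. The H3K4me3 list is attached to the repeat of 2 libraries but lacks the repeat mark in its name, so which library it came from is uncertain. Total epidermis is a mixture, and a peak cannot be assigned to a cell type. All 5 keratinocyte markers (Krt5, Krt14, Krt1, Krt10 and Trp63) had an H3K4me3 peak at the promoter or in the gene body. At the promoter, 3 of 5 had H3K4me3 and 1 of 5 had H3K27Ac, beside 54.0% and 44.1% of all genes. The H3K4me3 promoter peaks of these 3 were weak, with a fold enrichment of 3.29 to 3.98 against a median of 7.87 for promoter peaks. Those of the markers of other cell types had 4.96 to 12.4. At either place, H3K4me3 also lay in 3 of 5 melanocyte, 1 of 4 Langerhans and immune, 2 of 3 fibroblast and 1 of 2 endothelium markers. At the promoter alone these were 2 of 5, 1 of 4, 1 of 3 and 0 of 2. H3K27Ac lay at either place in 4 of 5 keratinocyte markers, and in 2 of 5, 0 of 4, 0 of 3 and 1 of 2 of the others. The share of all genes with a peak at either place was not computed. The part of such cells in the sirtuin peaks was not tested.

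The sequences below are examples, chosen by their peaks or their CpG count, with each CpG dinucleotide in capitals. They were read from RefSeq GRCm38.p6, the assembly known as mm10, and run 5′ to 3′ on the strand of the gene. The first is the whole Rfx2 peak of Sirt3 (chr7:140882059-140882349, minus strand), the single Rfx2 peak of the family. The others are RefSeq promoters from 250 bp upstream to 50 bp downstream of the TSS. They are Sirt4 (chr5:115484248-115484547, minus strand), the other gene with MOF, Sirt2 (chr7:28766502-28766801, plus strand), a shared promoter without MOF, and Sirt1 (chr10:63338986-63339285, minus strand), the promoter with the most CpG. The Sirt4 window is that of its downstream TSS, which the MOF peak does not cover, though the peak overlaps part of the window.
Sirt3 Rfx2 peak: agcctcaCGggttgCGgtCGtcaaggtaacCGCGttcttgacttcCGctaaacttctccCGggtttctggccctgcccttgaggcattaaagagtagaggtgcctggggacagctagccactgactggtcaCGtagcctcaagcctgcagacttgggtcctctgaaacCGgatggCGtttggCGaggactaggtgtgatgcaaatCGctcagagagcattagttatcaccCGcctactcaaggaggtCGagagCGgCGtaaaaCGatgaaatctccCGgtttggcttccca
Sirt4 promoter: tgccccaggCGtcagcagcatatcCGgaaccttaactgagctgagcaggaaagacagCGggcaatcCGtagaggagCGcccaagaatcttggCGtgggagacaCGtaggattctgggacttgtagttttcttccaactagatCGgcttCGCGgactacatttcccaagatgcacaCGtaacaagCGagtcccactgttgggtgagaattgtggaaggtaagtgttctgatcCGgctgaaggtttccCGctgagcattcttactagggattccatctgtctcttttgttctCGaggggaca
Sirt2 promoter: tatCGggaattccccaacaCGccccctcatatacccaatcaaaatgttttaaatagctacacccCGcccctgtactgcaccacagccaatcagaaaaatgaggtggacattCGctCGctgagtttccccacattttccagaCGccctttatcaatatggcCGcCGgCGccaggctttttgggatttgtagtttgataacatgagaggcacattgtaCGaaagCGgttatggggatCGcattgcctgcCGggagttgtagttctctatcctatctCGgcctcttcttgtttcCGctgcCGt
Sirt1 promoter: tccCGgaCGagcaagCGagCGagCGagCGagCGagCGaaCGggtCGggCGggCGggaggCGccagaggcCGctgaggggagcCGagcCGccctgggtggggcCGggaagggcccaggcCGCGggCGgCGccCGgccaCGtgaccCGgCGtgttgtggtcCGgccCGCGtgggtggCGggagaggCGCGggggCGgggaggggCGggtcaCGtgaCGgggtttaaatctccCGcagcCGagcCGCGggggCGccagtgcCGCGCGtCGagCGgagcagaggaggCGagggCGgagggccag

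Every sirtuin promoter carried both histone marks, whereas MOF was found at Sirt3 and Sirt4 and Rfx2 at Sirt3 alone. H3K4me3 overlapped the promoter of 7 of 7 sirtuins (exact Clopper-Pearson 95% interval 59.0 to 100%), beside 54.0% of all 26180 genes. H3K27Ac overlapped the promoter of 7 of 7 as well (59.0 to 100%), beside 44.1% of all genes. MOF overlapped 2 of 7 (28.6%, interval 3.67 to 71.0%), close to the 23.7% of all genes and below the 42.0% of the 14132 genes with H3K4me3 at the promoter. Rfx2 overlapped 1 of 7 (14.3%, interval 0.361 to 57.9%), beside 1.21% of all genes. Apart from Sirt3 and Sirt4, the other 5 sirtuins shared 1 pattern, H3K4me3 with H3K27Ac and neither factor, which 5666 genes (21.6%) had. The pattern of Sirt4, both marks with MOF, was that of 5306 genes (20.3%). The pattern of Sirt3, a peak of all 4 lists, was found at 204 genes (0.779%). Both genes with MOF encode mitochondrial sirtuins, and MOF was listed at 0 of the 4 nuclear or cytoplasmic ones and not at the third mitochondrial one, Sirt5. With GENCODE M21 transcripts, nuclear Sirt1 also had MOF, which makes it 1 of the 4. This split by compartment was looked at after the values were seen and was not tested. The intervals cover counting over 7 genes only.

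**Figure D1:**
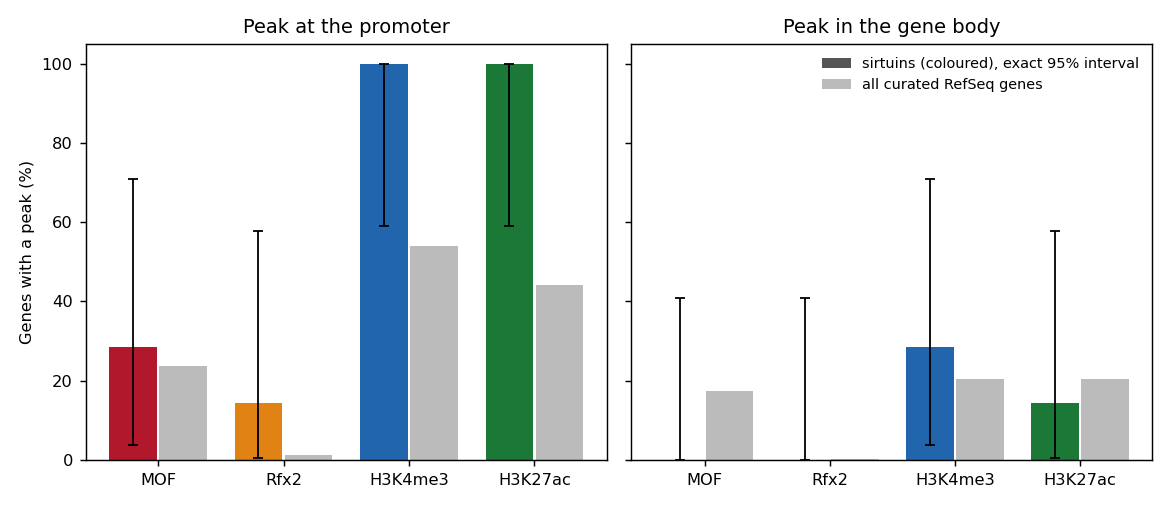
Share of genes (%) with a peak of each list at the promoter (left) and in the gene body (right). Coloured bars are the 7 sirtuins with exact 95% intervals and grey bars are all 26180 curated RefSeq genes. H3K4me3 and H3K27Ac reach 100% of sirtuin promoters, and the MOF bar of 28.6% stands next to a grey bar of 23.7%.

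Sirt3, the main mitochondrial deacetylase, lies at chr7:140863663-140882309 on the minus strand (GRCm38.p6) and has 2 TSSs that are 440 bp apart. The Rfx2 peak was 291 bp wide and had a fold enrichment over background of 10.6 and a −log10 q-value of 12.9, as the peak caller of the authors gave them. Its fold enrichment was above that of 82.7% of the 255 Rfx2 peaks at promoters, whose median was 7.30. The summit lay 42 bp downstream of the upstream TSS, in exon 1 of the transcript that starts there, and the peak covered this TSS and ended 190 bp short of the downstream TSS. All of the Rfx2 peak lay inside the MOF, H3K4me3 and H3K27Ac peaks of the gene.

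The MOF peak of Sirt3 was 970 bp wide, covered both TSSs and lay wholly inside the H3K4me3 and the H3K27Ac peak. Its score was 835, against a median of 651 over the 5220 MOF peaks at promoters, which placed it at percentile 72.4 of them. The scale of the MOF score is not given in the sources used here, so it serves only to rank MOF peaks. The list holds more MOF peaks than the study states were called, and whether it is a less strictly filtered call is not known, which bears on each MOF count and share given here. Both Sirt3 and Sirt4 kept their MOF peak among the 50% of peaks with the highest score. The MOF list also divides each peak into inner blocks. The Sirt3 peak held 2 such blocks, as did 3.94% of the 17546 MOF peaks, while 95.7% held 1. The 446 bp block contained the upstream TSS and the summits of Rfx2, H3K4me3 and H3K27Ac. The 281 bp block contained the downstream TSS and no summit, and a gap of 162 bp lay between the blocks. What the authors' peak caller meant by a block is not stated in the file.

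The histone marks at Sirt3 differed in where they stood within their own lists. H3K4me3 had a fold enrichment of 8.32 (percentile 55.9 of the promoter peaks of its list), a width of 1362 bp and a summit 18 bp downstream of the upstream TSS. H3K27Ac had a fold enrichment of 9.47 (percentile 88.1), a width of 1084 bp and a summit at −241 bp, on the side of the partner gene. The partner was Psmd13, which encodes a subunit of the regulatory particle of the 26S proteasome and starts 85 bp from Sirt3 on the opposite strand. The 4 Sirt3 promoter peaks also overlapped the Psmd13 promoter, so none of them can be given to Sirt3 alone. The gene most like Sirt3 over the 4 within-list percentiles was Rnf32, at a Euclidean distance of 13.4 percentile points. A list without a promoter peak counts as 0 in this measure, so Sirt3 was matched on 4 percentiles among few genes and the sirtuins with the marks alone on 2 percentiles among many. The distances given for different sirtuins are therefore not comparable.

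Sirt4, a mitochondrial ADP-ribosyltransferase and lipoamidase, lies at chr5:115478010-115484484 on the minus strand, with TSSs 187 bp apart. Its MOF peak had a score of 702 (percentile 56.0) and a width of only 336 bp, narrower than all but 6.98% of the MOF peaks at promoters, whose median width was 981 bp. The peak covered the upstream TSS, ended 73 bp short of the downstream TSS and held 1 inner block of 242 bp. H3K4me3 and H3K27Ac covered both TSSs, with summits at −5 bp and 44 bp from the downstream one. Their heights stood apart: H3K4me3 had a fold enrichment of 8.38 (percentile 56.6) and H3K27Ac of 4.63 (percentile 20.3), the lowest H3K27Ac percentile of the 7 genes. The MOF peak lay wholly inside the H3K4me3 peak, and 92.9% of it lay inside the H3K27Ac peak. No curated gene started within 1 kb on the opposite strand, and among curated genes this MOF peak overlapped the promoter of Sirt4 only. With predicted RefSeq transcripts included, Gm42007 started there on the opposite strand, inside the MOF peak. In GENCODE M21 the MOF peak covered no start of Sirt4, though it still overlapped the promoter window. The gene most like Sirt4 was Rgcc, at 5.39 percentile points.

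**Figure D2:**
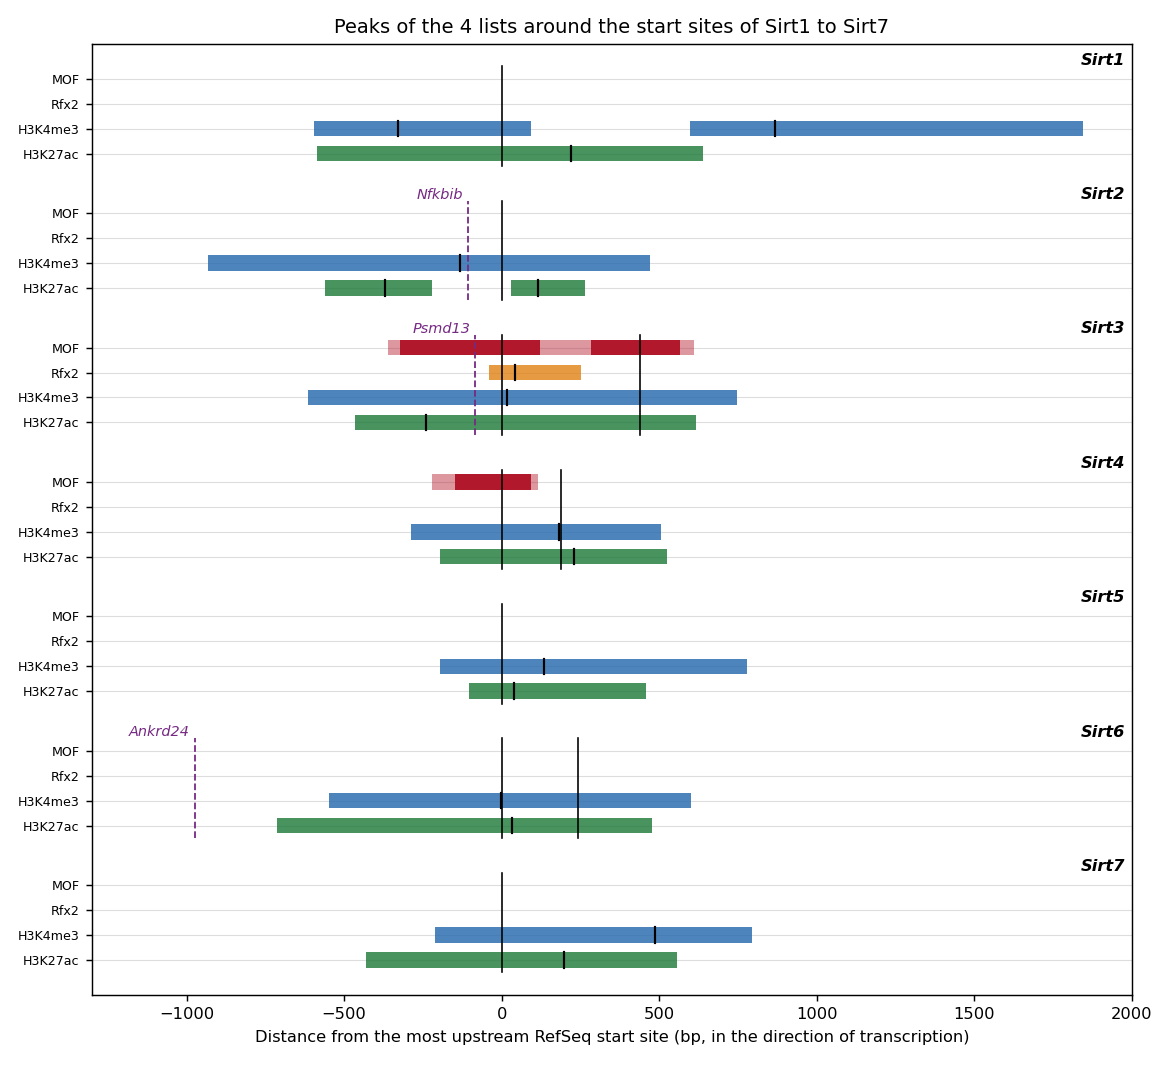
Peaks of the 4 lists around the start sites of the 7 sirtuins, by distance (bp) from the most upstream RefSeq TSS in the direction of transcription. Bars are peaks, short black ticks are summits (not given for MOF), darker red marks the inner blocks of MOF peaks, solid vertical lines are TSSs of the sirtuin and dashed lines are TSSs of the divergent partner. Only Sirt3 and Sirt4 have a red bar, and the orange Rfx2 bar of Sirt3 falls within the other 3 peaks.

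Sirt2, a mainly cytoplasmic deacetylase whose known substrates include tubulin, lies at chr7:28766752-28788665 on the plus strand. It starts 108 bp from Nfkbib, which encodes an inhibitor of NF-κB, on the opposite strand, about as close as the Sirt3 pair, yet neither MOF nor Rfx2 had a peak at either gene. A single H3K4me3 peak of 1403 bp spanned both starts, with a fold enrichment of 10.2 (percentile 77.4) and a summit at −133 bp. H3K27Ac instead formed 2 separate peaks, with a gap of 251 bp that contained the TSS. The peak on the Nfkbib side had a fold enrichment of 12.8 (percentile 98.7, 342 bp wide, summit at −369 bp), the highest H3K27Ac value among the sirtuins. The peak on the Sirt2 side had a fold enrichment of 6.37 (percentile 48.9, 233 bp wide, summit 117 bp downstream of the TSS). The gene most like Sirt2 was Snx2, at 0.492 percentile points.

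Sirt6, a chromatin deacetylase known for its part in DNA repair and telomere upkeep, lies at chr10:81621787-81627566 on the minus strand and starts 974 bp from Ankrd24. H3K4me3 had a fold enrichment of 12 (percentile 90.6, 1150 bp wide) with its summit at −3 bp, and H3K27Ac had 6.77 (percentile 55.4, 1190 bp wide) with its summit 33 bp downstream. Both peaks covered the 2 TSSs of Sirt6, which are 244 bp apart, and both overlapped the Ankrd24 promoter. Counting Sirt2, Sirt3 and Sirt6, 3 of 7 sirtuins had a divergent partner within 1 kb (42.9%, interval 9.90 to 81.6%), beside 11.9% of all genes. MOF was present at 1 of these 3 shared promoters and at 1 of the other 4. The gene most like Sirt6 was Gpn2, at 0.651 percentile points.

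Sirt1, the nuclear sirtuin that deacetylates histones, p53 and PGC-1α, lies at chr10:63319005-63339035 on the minus strand and stood lowest for H3K4me3. Its promoter peak had a fold enrichment of 5.07 (percentile 16.7), a width of 688 bp and a summit at −330 bp. A second H3K4me3 peak, wider (1245 bp) and somewhat higher (5.89), began 507 bp beyond the first and ran from 599 to 1843 bp downstream of the TSS, in intron 1. The H3K27Ac peak (fold enrichment 5.78, percentile 39.4, 1224 bp wide) bridged this gap and overlapped both H3K4me3 peaks, and its summit lay 220 bp downstream of the TSS in exon 1. The gene most like Sirt1 was 2310010J17Rik, at 0.544 percentile points.

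Sirt5, a mitochondrial enzyme that removes succinyl, malonyl and glutaryl groups, lies at chr13:43365535-43395203 on the plus strand and had the highest H3K4me3 value. Its H3K4me3 peak had a fold enrichment of 13.1 (percentile 95.2, 977 bp wide) and a summit 133 bp downstream of the TSS. H3K27Ac reached 7.32 (percentile 64.5, 560 bp wide), with a summit 40 bp downstream. Sirt7, a nucleolar sirtuin linked to ribosomal RNA synthesis, lies at chr11:120618371-120625014 on the minus strand. Its H3K4me3 peak (10.2, percentile 77.7, 1006 bp wide) had its summit 488 bp downstream of the TSS, in exon 3, the farthest of the 7 promoter summits. Its H3K27Ac peak (5.25, percentile 30.6, 987 bp wide) had its summit 198 bp downstream, in intron 1. Both Sirt7 peaks also overlapped the promoter of Mir6936, a microRNA gene on the same strand whose start is 138 bp downstream of the Sirt7 TSS. The genes most like Sirt5 and Sirt7 were Saal1 at 0.666 and Gpt2 at 0.271 percentile points.

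The order of the 7 genes thus differed between the 2 marks. By the fold enrichment of H3K4me3, which had a median of 7.87 over 13314 promoter peaks, Sirt5 came first, then Sirt6, Sirt7 and Sirt2, then Sirt4 and Sirt3, and Sirt1 last. By H3K27Ac, with a median of 6.44 over 10801 promoter peaks, Sirt2 came first through the higher of its peaks, the one on the Nfkbib side, then Sirt3, Sirt5, Sirt6, Sirt1, Sirt7 and Sirt4. By the peak on its own side (6.37), Sirt2 would come after Sirt6 (6.77). Sirt2 and Sirt7 both had an H3K4me3 value of 10.2, and with 1 list per mark no 2 neighbours in either order can be told apart by a test. Heights of different lists are on different scales and were compared only through their percentiles.

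**Figure D3:**
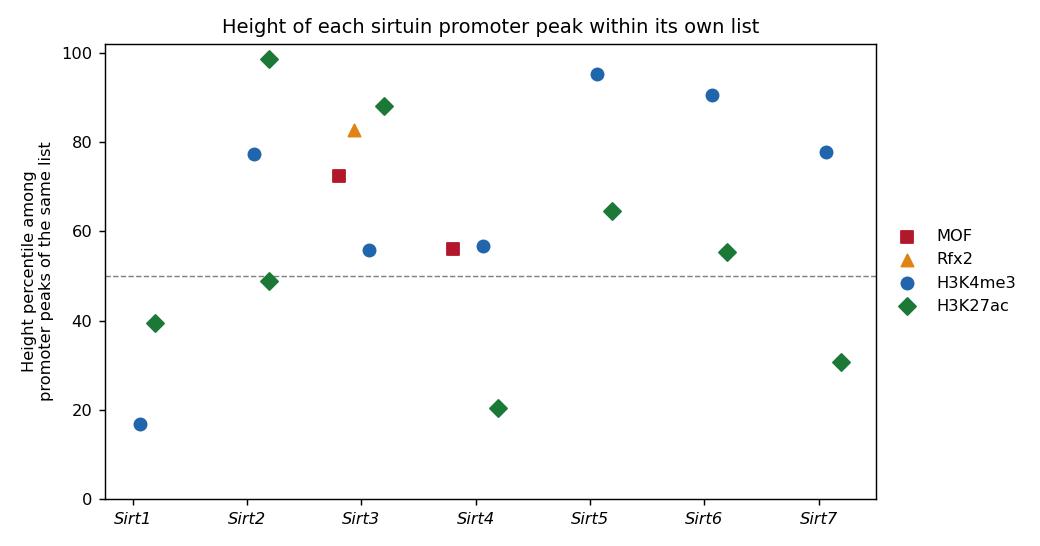
Percentile of each sirtuin promoter peak by its height among the promoter peaks of the same list (0 to 100, dashed line at 50), with 1 point per peak. H3K4me3 ranges from 16.7 at Sirt1 to 95.2 at Sirt5, H3K27Ac from 20.3 at Sirt4 to 98.7 at Sirt2, and the MOF points are 72.4 at Sirt3 and 56.0 at Sirt4.

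Outside the promoters, neither factor had a peak in a gene body. MOF was listed in the gene body of 0 of 7 sirtuins (interval 0 to 41.0%), beside 17.5% of all genes, and Rfx2 in 0 of 7, beside 0.183%. H3K4me3 had a gene body peak in 2 of 7, Sirt1 and Sirt4, beside 20.3% of all genes. The Sirt1 peak is the one in intron 1 described above. The Sirt4 peak was 258 bp wide, had a fold enrichment of 3.79 (percentile 6.11 of promoter peaks) and lay in exon 3, 3845 to 4102 bp from the downstream TSS. H3K27Ac had gene body peaks in 1 of 7, Sirt2, beside 20.5% of all genes. These were 3 peaks in intron 8 of Sirt2, 391, 232 and 231 bp wide, between 13516 and 15362 bp downstream of the TSS. Their fold enrichment was 6.06, 4.35 and 3.01, and no peak of another list overlapped them.

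For the 5 sirtuins without MOF at the promoter, the nearest MOF peak was 7052 to 42396 bp from the TSS. Among the 8199 genes with H3K4me3 and without MOF at the promoter, this distance had a median of 25703 bp and quartiles of 10453 and 59503 bp. Sirt7 was nearest, at 7052 bp (percentile 17.6), to a peak with a score of 499 at the start of Mafg and Gm17586, while its neighbour on the other side, Pcyt2, had no MOF at its promoter. Sirt6 was 15100 bp away (percentile 34.5) from a MOF peak with a score of 290 that lay inside Ankrd24 and at no promoter, and neither BC025920 nor Ankrd24, its flanking genes, had MOF at the start. The TSS nearest to that peak was that of Gm10778, 4570 bp from it. Sirt2 was 24112 bp (percentile 47.7) from a peak at Mrps12 and Sars2, which encode a mitochondrial ribosomal protein and a mitochondrial tRNA synthetase. That peak had a score of 1191, while Nfkbib and Rinl beside Sirt2 had none.

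Sirt5 was 32662 bp (percentile 57.6) from the MOF peak of Nol7, with a score of 335, and Gfod1 on its other side had a MOF peak with a score of 892. Both genes that flank Sirt5 therefore carried MOF and Sirt5 did not. Sirt1 was farthest, 42396 bp (percentile 65.4) from the peak of Dnajc12, with a score of 308, and 1700120B22Rik on its other side had a score of 651. In the GENCODE M21 annotation, 1 transcript named Sirt1 starts 42669 bp upstream of the RefSeq TSS and inside this MOF peak, so whether the peak counts for Sirt1 depends on the annotation. The other Sirt1 transcripts of GENCODE start within 3 bp of the RefSeq TSS. This comparison of annotations was chosen after the data had been seen.

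The nearest Rfx2 peak lay much farther from the other 6 sirtuins, in a list of only 337 peaks. The distance was 168502 bp for Sirt4, to a peak near Bicdl1, and 330154 bp for Sirt2, to one at Gmfg and Samd4b. It was 360430 bp for Sirt6, to the Rfx2 peak of Mrpl54, and 366076 bp for Sirt7, to that of Csnk1d. Sirt5 (2364332 bp) and Sirt1 (4840893 bp) were farthest. The median over the 13811 genes with H3K4me3 and without Rfx2 at the promoter was 1955686 bp, so 4 of the 6 were nearer than the median. The genes that flank Sirt4 were Pla2g1b, with no peak of any list at its promoter, and Pxn, with MOF (score 836) and both marks but no Rfx2.

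**Figure D4:**
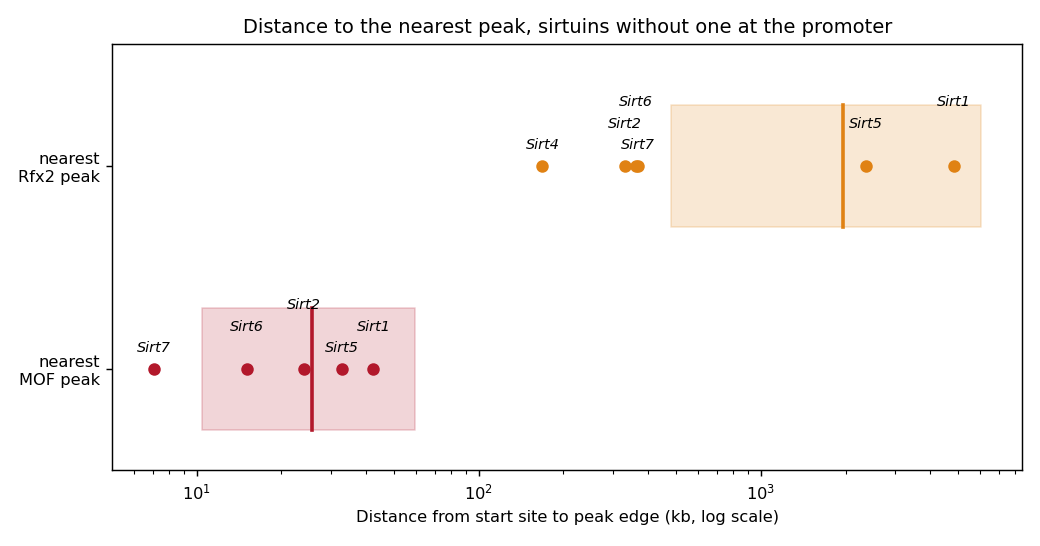
Distance (kb, log axis) from the TSS to the edge of the nearest MOF or Rfx2 peak for the sirtuins without that peak at the promoter, 1 point per gene. The shaded band spans the quartiles and the line the median of all genes with H3K4me3 and without the factor at the promoter. The MOF points run from Sirt7 to Sirt1 around the median of 25703 bp, and 4 of 6 Rfx2 points lie below the band.

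All sirtuin promoters held more CpG than the median of the 32851 RefSeq promoters, which was 7.00 in 300 bp. Sirt1 had 47 CpG (percentile 98.7), a GC content of 79.0% and 7 copies of GGGCGG, the core of the GC box. The other promoters had 15 to 24 CpG, and the ratio of observed to expected CpG ran from 0.520 at Sirt5 to 1.09 at Sirt1, against a median of 0.384. Genes with and without MOF overlapped in this respect: Sirt4 had 15 CpG, as did Sirt5, while the promoters of Sirt3 had 23 and 24. The RefSeq table holds a promoter for the downstream TSS of Sirt4 only.

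Motifs were searched on both strands of these promoters. GGGCGG was in 6 of 7 sirtuins, all but Sirt4, and in 35.7% of all promoters. In Sirt3 and Sirt6 it was only at the downstream TSS. CCAAT, the box bound by NF-Y, was in 3 of 7 (Sirt2, Sirt3 and Sirt5) and in 37.4% of all promoters. CCGGAAG, a core of ETS sites, was in 3 of 7 (Sirt3, Sirt6 and Sirt7) and in 8.86%, and the palindromic NRF1 motif was in Sirt6 and in 0.971%. TATAAA was in 0 of 7 and in 13.6%. GTTGCC, a form of the left arm of the X-box, was in 0 of 7 and in 12.5%, and the X-box as a whole was in 0 of 7 and in 1.53%. Sirt3 and Sirt6 were searched at both of their TSSs, and Sirt4 at its downstream TSS only. The sirtuin counts are per gene and the shares are per promoter, so a gene searched at both TSSs has more chances of a match. A missing match says only that these letters are not in the window. Some X-boxes contain GTTGCC, and no other motif searched contains another.

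The Rfx2 peak of Sirt3, printed above, held 18 CpG (observed over expected 0.799) and no GTTGCC on either strand. Over the 329 Rfx2 peaks on nuclear chromosomes, GTTGCC lay within 145 bp of the summit, a span as wide as the Sirt3 peak, in 149 (45.3%), and in 11.1% of the 26713 H3K4me3 peaks without Rfx2 there. The remaining Rfx2 peaks of the list, on the mitochondrial genome, were left out of this search. A whole X-box lay there in 23.4% and 0.730% of them. The Sirt3 peak did hold GGTAAC, a form of the right arm of the X-box, once, on the strand of Sirt3 at positions 25 to 30 of the printed peak. This is 11 to 16 bp upstream of the TSS and 55 bp from the summit. GGTAAC was searched after this sequence had been read, and on either strand it lay within 145 bp of the summit in 19.1% of these 329 Rfx2 peaks and in 6.38% of these H3K4me3 peaks without Rfx2.

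The sirtuins were set beside the genes that make and use their cosubstrate NAD and beside the zinc-dependent deacetylases, which remove acetyl groups without NAD. Of 16 genes of NAD synthesis and salvage, 9 had H3K4me3, 8 had H3K27Ac and 5 had MOF at the promoter, led by Afmid with a score of 802 and Nmnat1 with 770. Haao, Ido1 and Kmo, the first in the alphabet, were among the 7 of this list with no peak of any kind there, beside 44.1% of all genes. Of 12 genes of NAD consumption, transport and phosphorylation, 9 had H3K4me3, 8 had H3K27Ac and 6 had MOF, led by Parp1 (681) and Parp3 (514), while Bst1, Cd38 and Nnmt had none. Of 11 zinc-dependent deacetylases, 10 had H3K4me3, 10 had H3K27Ac and 5 had MOF, led by Hdac7 (789) and Hdac4 (703), and Hdac9 had none. Rfx2 was at 0 promoters of the 3 lists.

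Among promoters with H3K4me3, MOF was present at 2 of 7 sirtuins and at 5 of 9 genes of NAD synthesis and salvage. It was present at 6 of 9 genes of NAD consumption, transport and phosphorylation and at 5 of 10 zinc-dependent deacetylases. The share of the sirtuins was the lowest of these, and its interval of 3.67 to 71.0% contained the shares of the others (55.6%, 66.7% and 5 of 10) as well as the 42.0% of all genes with H3K4me3. The Sirt3 score of 835 was above the highest of each list. The Sirt4 score of 702 lay within the range of the zinc-dependent deacetylases (505 to 789) and of NAD synthesis and salvage (460 to 802). It was above that of NAD consumption, transport and phosphorylation (444 to 681). These ranges are over the list genes with both MOF and H3K4me3 at the promoter.

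**Figure D5:**
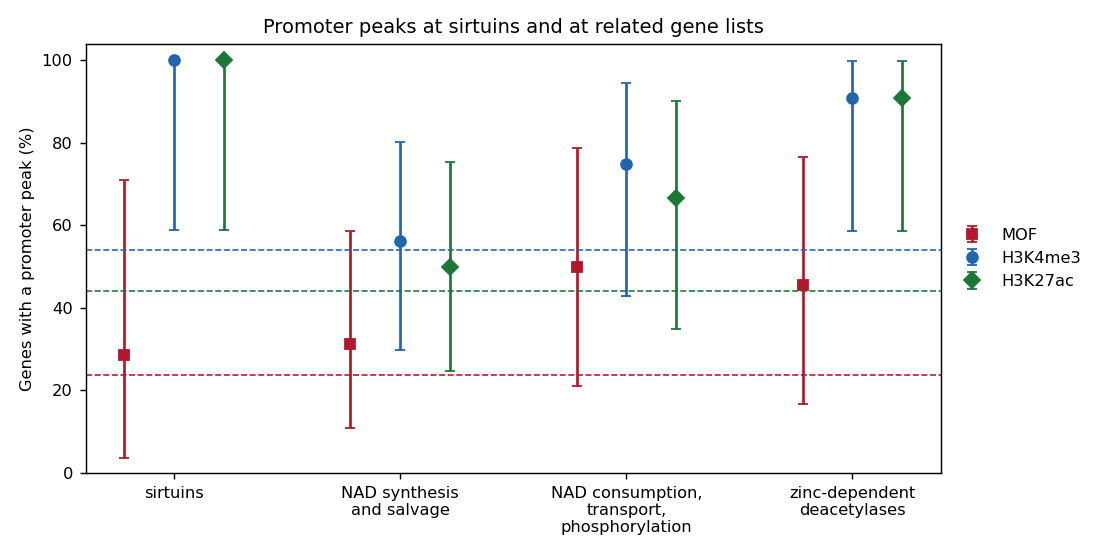
Share of genes (%) with a MOF, H3K4me3 or H3K27Ac peak at the promoter in the sirtuins and in 3 related lists of 16, 12 and 11 genes, with exact 95% intervals. Dashed lines are the shares over all genes (23.7%, 54.0% and 44.1%). The sirtuin point for MOF (28.6%) is the lowest of the 4, and all intervals for MOF overlap.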

How the data were processed

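Each list came from 1 library of P0.5 wild-type mouse total epidermis. The authors aligned the reads to mm10 with Bowtie2 and called peaks library by library with MACS2, per the study's methods and the submitters' processing notes. MOF reads were single-end and called without a fragment model, and Cut&Run reads were paired-end. The deposited MOF list held a score of unstated scale, without fold enrichment or q-value. The other deposited lists held the fold enrichment (a ratio over background), the −log10 q-value and the summit of each peak, as the authors' peak caller wrote them. Design had assumed fold enrichment for MOF, and the score was used to rank instead. The lists hold no read counts, and the read number that the study states for each library was not used here. The H4K16Ac and H3K4me1 libraries and the other H3K4me3 and H3K27Ac libraries were not used here.

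TSSs came from curated RefSeq transcripts of GRCm38.p6. Peaks were overlapped with promoters (1 kb upstream, 100 bp downstream, at least 1 bp shared) and gene bodies with Python 3.11.15, intervals were exact binomial (scipy 1.17.1), and sequence was read with pysam 0.24.0. Figures were drawn with matplotlib 3.10.9. A percentile is the place of a peak by height among the promoter peaks of its list. Overlap calls were tested on simulated data and differed from bedtools at 0 of 20000 windows. No p-value was computed. The members and gene lists were chosen with earlier results of these data known. Named were the 7 sirtuins, the genes that share a promoter peak with them or start within 1 kb on the opposite strand, the flanking genes where the nearest factor peak lay outside the gene, for each gene list the 2 highest MOF scores and up to 3 genes without a peak, and for each sirtuin the gene nearest to it over the 4 percentiles. Genes at a nearest peak and markers were named after their values were seen.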

Additional observations from a re-analysis of the deposited data

How the results depend on the processing

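No paired analysis was possible because there was a single list for each antibody. Of 54 alternatives, 48 gave a count within 1.5 times of the reported one, among them all 28 for the promoter counts. The sirtuins with H3K4me3 in the gene body went from 2 to 1 when 2.5 kb around each TSS was left out, which removed Sirt1, and to 1 with the 50% of peaks of highest −log10 q-value, which removed Sirt4. In the window from 1 kb before the TSS to 100 bp after it, which is longer and so holds more matches, GTTGCC went from 0 to 2 sirtuins, CCAAT from 3 to 5, the NRF1 motif from 1 to 2 and TATAAA from 0 to 1. In that window 35.4%, 80.0%, 1.51% and 48.5% of all genes held these motifs. Requiring the peak centre in the promoter kept H3K4me3 at 5 of 7 (without Sirt5 and Sirt7) and H3K27Ac at 6 (without Sirt5). The stronger 50% of H3K4me3 peaks left 6 (without Sirt1). GENCODE M21 transcripts, an alternative added after the data had been seen, gave MOF at 3 sirtuins by adding Sirt1. Shared promoters were 2 with TSSs within 500 bp, without Sirt6, and 4 with predicted transcripts, by adding Sirt4. Depth, replicate error and the final form of the MOF call cannot be read from the lists.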
